A study of Mus musculus with 4 samples.

Results

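The nuclei described here are those that the authors' deposited annotation calls microglia, in single-nucleus RNA sequencing of mouse superior colliculus, the part of the midbrain roof that takes input from the retina and guides gaze. They were taken by that label alone, pooled over stages, and numbered 90 of 9724 nuclei (0.926%, 95% exact binomial interval 0.745 to 1.14). The tissue came from C57BL/6J mice at embryonic day 19 (E19) and postnatal days 4, 8 and 21 (P4, P8, P21), with no transgene, agent or treatment in the labels. Each stage had 1 library of nuclei from several pooled animals, and their number and sexes were not stated. The remaining nuclei carried 8 other class labels, from excitatory and inhibitory neurons to endothelial and vascular leptomeningeal cells. No stage had a replicate library, so stages could not be tested, and every interval is a 95% interval for counting error alone. Comparisons within libraries, of the annotated microglia with the other classes and of nuclei within the class, were not tested either, since the deposited clusters and the groups used below were formed from the same counts.

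Microglia are the resident macrophages of the brain. They arise from the yolk sac, depend on signalling through the receptor Csf1r, and are recognised by Cx3cr1, P2ry12, Tmem119 and the factor Sall1. In the developing brain they engulf dying cells and synaptic material, using complement, lipid-sensing receptors and lysosomal enzymes. A related population of macrophages lies at the borders of the brain, in the meninges and around vessels. It shares Csf1r, the C1q genes and the transcription factor Spi1 (PU.1) with microglia, and is recognised by Mrc1, Pf4, Lyve1, Cd163, Stab1 and F13a1.

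The annotated microglia made up 13 of 2585 nuclei at E19 (0.503%, 0.268 to 0.858), 23 of 2386 at P4 (0.964%, 0.612 to 1.44), 21 of 2504 at P8 (0.839%, 0.52 to 1.28) and 33 of 2249 at P21 (1.47%, 1.01 to 2.05). The P21 share lay above the E19 share with intervals that did not overlap, and the intervals at P4 and P8 overlapped both. When nuclei were taken by their marker UMIs in place of the label, 40 were found, all of them annotated microglia. Of these, 8 were at E19 (0.309%, 0.134 to 0.609) and 17 at P21 (0.756%, 0.441 to 1.21), and these intervals overlapped. This smaller set does not measure the share of the whole class. All 90 nuclei lay in 1 deposited cluster, which held no other nucleus. They carried 316107 unique molecular identifiers (UMIs, each standing for 1 captured RNA molecule): 56529 (E19), 72577 (P4), 75929 (P8) and 111072 (P21). Their median of 3219 UMIs and 1948 genes per nucleus was the lowest of the 9 classes. By stage the medians were 4324, 2984, 3326 and 2994 UMIs, against 6846.5, 9154, 9699 and 11879.5 in the other nuclei. Their median share of mitochondrial UMIs was 1.06%, against 0.485% in the other nuclei. Across libraries 9 barcodes were shared by 18 nuclei, none of which was an annotated microglial nucleus.

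Both genes used to check the label were present. Csf1r, which encodes the receptor for CSF1 and IL-34, was measured at 952 CPM (848 to 1066) where CPM is UMIs per 1000000 UMIs, summed over the nuclei of a class. The highest other class, endothelial cells, had 4.93. Csf1r was found in 83 of 90 nuclei (92.2%), against 67 of 4093 excitatory neurons (1.64%), whose median depth of 11598 UMIs was higher. Cx3cr1, the receptor for the neuronal ligand fractalkine, was at 528 CPM (451 to 615) against 7.91 in astrocytes, but it was found in only 50 of the 90 nuclei.

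The data went against a single label for these nuclei. Each nucleus was scored by its UMIs of a list of 15 homeostatic microglial genes and a list of 14 genes of border macrophages. In 48 nuclei the homeostatic genes led, in 40 the border genes reached or exceeded them (44.4% of the class, 34.0 to 55.3), and in 2 a list of lymphocyte and mast cell genes led. The first group held 12 to 48 homeostatic UMIs per nucleus (median 25) and 0 to 6 border UMIs (median 1). The second held 4 to 19 homeostatic UMIs (median 7) and 15 to 170 border UMIs (median 41.5). Only 1 nucleus had a larger sum less than 2 times the smaller, so few nuclei lay near the dividing line. The groups are ranges of a score and not named cell types, and are called homeostatic-rich and F13a1/Mrc1-rich here.

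**Figure D1:**
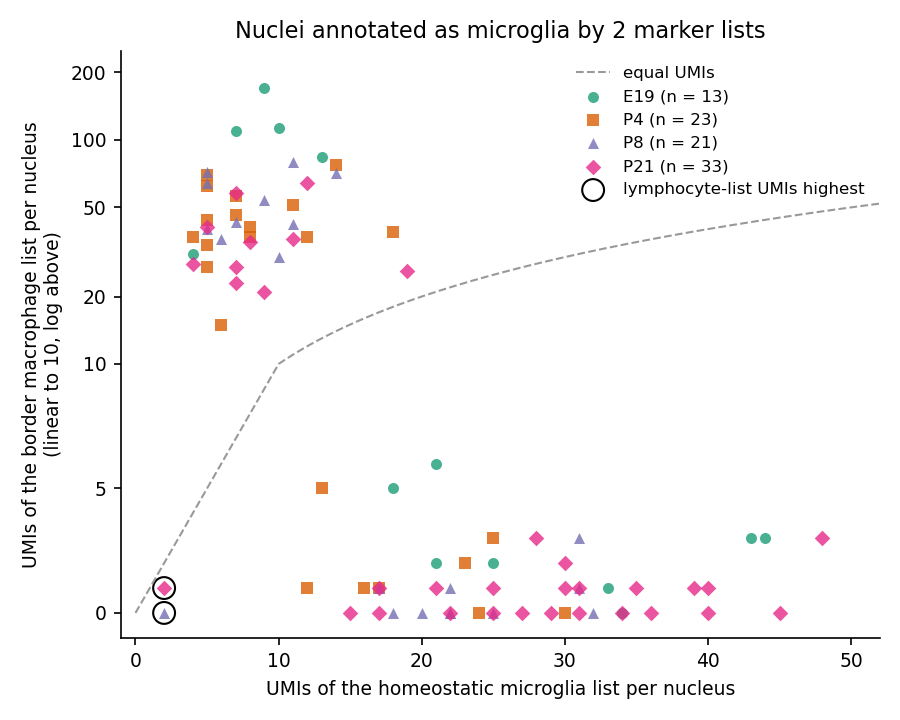
Each point is 1 of the 90 nuclei, placed by its UMIs of the homeostatic microglia list (x axis, linear) and of the border macrophage list (y axis, linear to 10 and logarithmic above), with stage as colour and shape. Points above the dashed line of equal UMIs are the 40 F13a1/Mrc1-rich nuclei, points below it the 48 homeostatic-rich ones, and the circles mark the 2 nuclei in which lymphocyte genes led.

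F13a1 (chr13:36867178-37050244, minus strand, mm10), which encodes the A subunit of coagulation factor XIII, separated the groups completely. It was found in 0 of 48 homeostatic-rich nuclei, which at a median of 3206 UMIs allows up to 6.25% of nuclei with a UMI, and in 40 of 40 F13a1/Mrc1-rich nuclei, at 3 to 104 UMIs (median 14). Mrc1 (chr2:14229392-14332057, plus strand), the mannose receptor CD206, was found in 6 of 48 and in 40 of 40 nuclei. Cx3cr1 (chr9:119901616-120069879, minus strand) was found in 41 of 48 homeostatic-rich nuclei (85.4%) and in 9 of 40 of the other group (22.5%). Excitatory neurons, at their higher depth, had a UMI of F13a1 in 3.10% of nuclei, of Mrc1 in 1.95% and of Cx3cr1 in 5.23%. The groups had like depth, with medians of 3206 and 3295 UMIs. F13a1, Mrc1 and Cx3cr1 belonged to the lists that formed the groups, so these counts describe the grouping.

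Both groups occurred in every library. Homeostatic-rich and F13a1/Mrc1-rich nuclei numbered 8 and 5 at E19, 8 and 15 at P4, 10 and 10 at P8, and 22 and 10 at P21. The homeostatic-rich nuclei were 0.309% of the E19 library (0.134 to 0.609) and 0.978% of the P21 library (0.614 to 1.48), and these intervals did not overlap. F13a1/Mrc1-rich nuclei were 0.193%, 0.629%, 0.399% and 0.445% of the libraries, in the order of stages, with intervals that all overlapped. They made up 38.5%, 65.2%, 47.6% and 30.3% of the class in the same order, so values by stage are given below for the class and within each group. How much meningeal or vascular tissue each dissection held cannot be told apart from the stage.

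**Figure D2:**
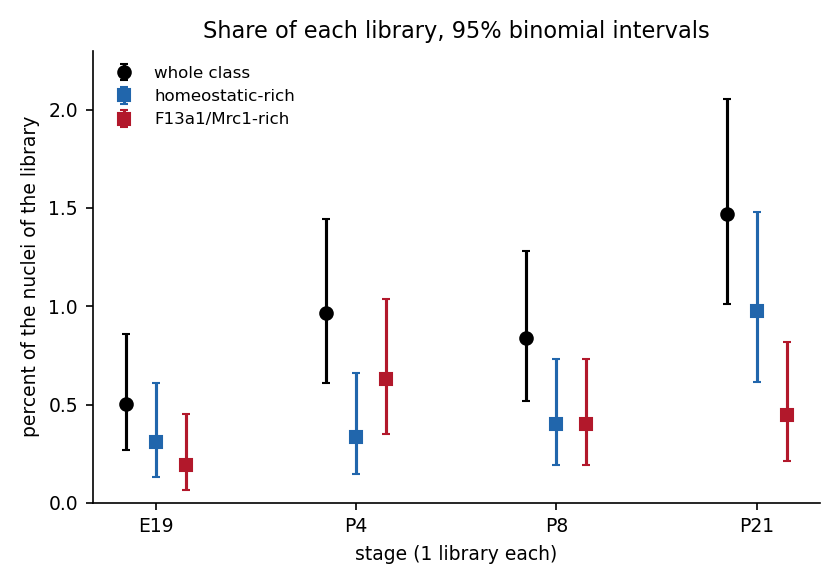
Percent of all nuclei of each library (y axis) that carried the microglia label, and that fell into its homeostatic-rich and F13a1/Mrc1-rich groups, by stage (x axis), with 95% exact binomial intervals. The whole class reached 1.47% at P21 against 0.503% at E19, and the homeostatic-rich nuclei 0.978% against 0.309%.

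The comparison with the other classes asked which genes set the annotated microglia apart. Of 2514 genes at 100 CPM or more in the class, 115 (4.57%) were at least 8-fold above the highest other class, where 5 CPM was added to each value before the log2 ratio was taken. Of 7879 genes at 20 CPM or more, 2688 (34.1%) were highest in the annotated microglia. The 25 genes with the largest ratios had log2 ratios of 5.41 to 7.49, and by the rule that named them each was above every other class in every library. F13a1 came first, at 2604 CPM (2429 to 2788) against 9.49 in dividing cells, and Mrc1 came second, at 2164 CPM (2005 to 2332) against 9.87 in endothelial cells. These and Aoah rested on the F13a1/Mrc1-rich nuclei. Without those nuclei F13a1 was below the highest other class, with a log2 ratio of -0.42, Mrc1 was at 1.61 and Aoah at 1.03. The other 22 remained at least 8-fold above every other class without them.

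Transcription factors among the 25 were Runx1, Ikzf1 and Spi1. Runx1, a factor of blood cell formation that yolk sac progenitors need, was at 1401 CPM (1274 to 1538) against 6.58 in endothelial cells. Ikzf1 (Ikaros), a lymphoid and myeloid zinc finger factor, was at 569 CPM against 2.94. Spi1, the PU.1 factor without which microglia do not form, was at 278 CPM against 1.64. All of these were far more abundant in the annotated microglia than in any other class, and Runx1 was at 1357 CPM in homeostatic-rich and 1443 in F13a1/Mrc1-rich nuclei.

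Surface receptors were the largest set. Besides Csf1r and Mrc1 it held Csf3r, the G-CSF receptor (348 against 1.58 CPM in the next class), Adgre1, the F4/80 antigen of macrophages (626 against 4.93), and Ptprc, the CD45 antigen of all white blood cells (367 against 1.89). The co-stimulatory ligand Cd86 was at 446 against 1.64 CPM, the sialic acid lectin Siglech at 418 against 4.26, and Ly86, a partner of the toll-like receptor homologue RP105, at 737 against 2.94. Fcrls, an Fc receptor-like protein of microglia, stood at 459 against 3.16 CPM. The nucleotide receptors P2ry12 and P2ry6, which steer microglial processes and phagocytosis, stood at 452 and 282 CPM, with 5.62 and 1.64 in their next classes.

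Regulators of the actin skeleton formed the next set. Dock2, an activator of Rac in leukocytes, was at 1095 CPM (982 to 1216) against 7.91, Nckap1l, a part of the leukocyte WAVE complex, at 414 against 1.89, and Myo1f, a class I myosin, at 471 against 2.94. The GTPase-activating proteins Arhgap45 and Arhgap30 were at 664 and 249.9 CPM, against 4.93 and 0.855. The enzymes Hpgds, the haematopoietic prostaglandin D synthase, and Aoah, which inactivates lipopolysaccharide, were at 838 and 414 CPM against 3.74 and 3.11. The list was completed by the signalling adaptor Bank1 (399 against 0.947 CPM), Wdfy4, which dendritic cells need to cross-present antigen (256 against 0.904), and Mir142hg, the host transcript of a blood cell microRNA (275 against 0.893). Of Dock2, 38 UMIs lay in 1 of the 2 nuclei in which lymphocyte genes led. Of 96 genes named by rank against the other classes, between the groups or between stages, 30 overlapped another annotated gene on their own strand and 44 on the opposite strand. Their counts are uncertain to that extent, since whether reads were counted by strand was not stated. Csf1r, Mrc1, Ptprc, Nav2, Fli1 and Elmo1 are among the 30.

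**Figure D3:**
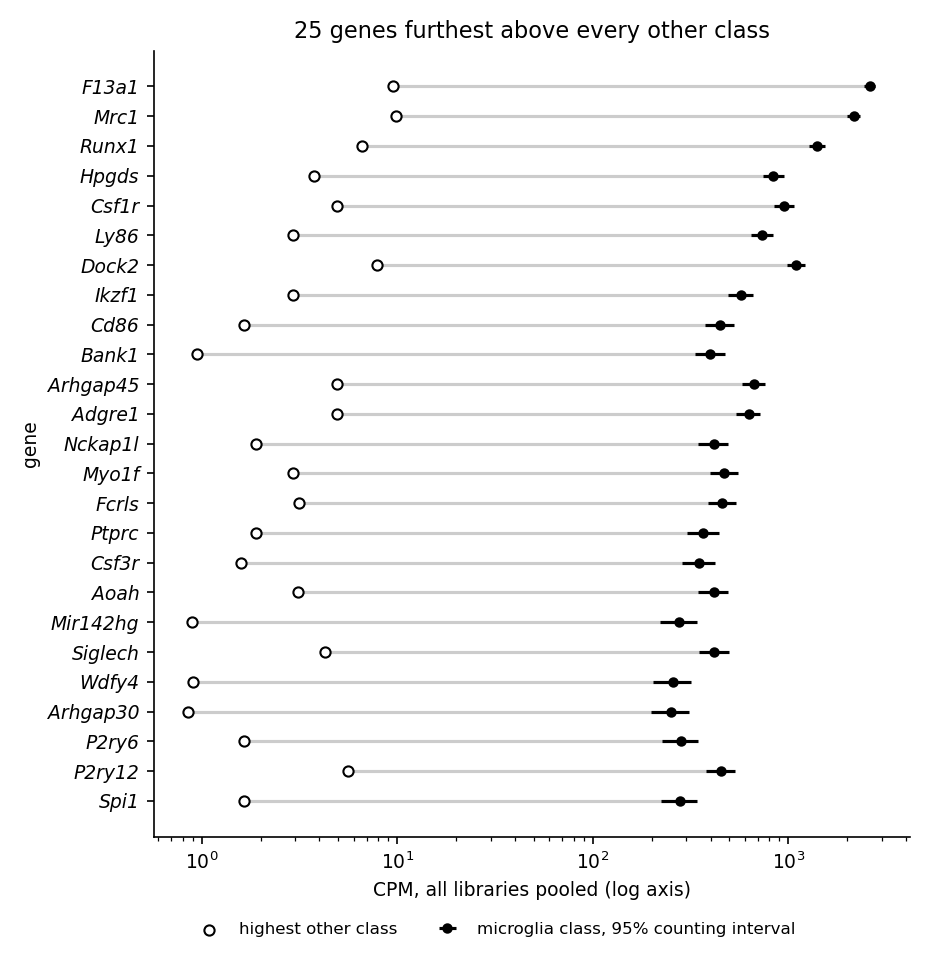
The 25 genes furthest above every other class, with the pooled level in the annotated microglia (filled points, 95% counting intervals) and in the highest other class (open points), in CPM on a logarithmic x axis. Levels in the highest other class lay between 0.855 and 9.87 CPM, and levels in the annotated microglia between 249.9 and 2604 CPM.

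The gene lists below were described by how many of their measured members (20 CPM or more in the class) were highest in the annotated microglia, beside 34.1% over all genes, and by the median log2 ratio to the highest other class, which was -0.33 over all genes. Where members past 8-fold are counted, 162 of 7879 genes at 20 CPM or more met that measure. Members of the homeostatic list were highest in the annotated microglia in 15 of 15 cases, with a median of 4.70. Selplg, the ligand of P-selectin, stood at 313 CPM (255 to 381) against 3.16 in dividing cells. The smallest margins were those of Cst3, cystatin C, at 509 CPM against 406 in astrocytes, and Olfml3, at 72.8 CPM against 46.9 in vascular leptomeningeal cells. The nuclear factor Sall1 was at 101 CPM and Tmem119, a microglial surface protein, at 60.1 CPM.

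In the complement list 7 of 8 measured members were highest in the annotated microglia, with a median of 2.96. The subunits of C1q, which starts the classical pathway and tags synapses, were at 383 CPM (C1qa), 392 CPM (C1qb) and 335 CPM (C1qc), against 14.2, 7.91 and 3.32 in the next class. The C3a receptor C3ar1 was at 66.4 CPM against 0.416. C3 had no UMI in the class. Itgam, the CD11b subunit of the receptor for cleaved C3, had none in any of the 9724 nuclei, and neither had Irf8, so no statement on these genes was possible.

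In the list of phagocytosis and recognition receptors 15 of 17 members were highest in the annotated microglia, with a median of 3.12. Mertk, which binds apoptotic cells through Gas6 and Pros1, was at 1414 CPM (1286 to 1551) against 334 in astrocytes. Stab1, a scavenger receptor, was at 1107 CPM against 123. Itgb5, a subunit of an integrin that recognises dying cells, was at 522 CPM against 151, and the lipoprotein receptor Lrp1 at 443 CPM against 280.4. The lipid receptor Trem2 and its adaptor Tyrobp were at 123 CPM and 91.7 CPM, and the inhibitory lectin Cd33 at 187 CPM, against 1.67, 3.29 and 1.64 in the next class. Axl and Adgrb1 were the members higher elsewhere, at 22.1 and 25.3 CPM against 64.1 in endothelial cells and 202 in inhibitory neurons.

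Of 15 measured growth factor and TGF-beta receptors and partners, 12 were highest in the annotated microglia, with a median of 1.74. Tgfbr1, the type I receptor for TGF-beta, was at 999.7 CPM (892 to 1116) against 295 in epithelial cells, and Nrros, which presents latent TGF-beta on microglia, at 522 CPM against 50.99. Tgfbr2, the type II receptor, was at 408 CPM against 336 in endothelial cells. Smad3, a nuclear effector of the pathway, and the integrin subunit Itgav, which helps release latent TGF-beta, were higher elsewhere, at 313 CPM in vascular leptomeningeal cells and 169 CPM in dividing cells, against 263 and 149 in the annotated microglia. Eng, an endothelial co-receptor, was at 28.5 CPM against 696 in endothelial cells.

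Among 19 measured transcription factors of the myeloid list, 16 were highest in the annotated microglia, with a median of 1.08. Mef2c was at 1344 CPM against 441 in endothelial cells and Maf at 1012 CPM against 447 in vascular leptomeningeal cells. Fli1, an Ets factor of blood and endothelium, was at 1193 CPM against 1097, and Mef2a at 911 CPM against 614, both next to endothelial cells. Etv6 was level with endothelial cells, at 677 against 678 CPM, and Elf1 was higher in epithelial cells, at 344 against 228 CPM. Sall3 was at 47.5 CPM against 219.8 in dividing cells.

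Purinergic receptors and enzymes were highest in the annotated microglia in 6 of 7 cases, with a median of 2.84. The ATP-gated channel P2rx7 was at 516 CPM against 66.4 in dividing cells, P2rx4 at 206 CPM against 63.5, and the ATP-degrading enzyme Entpd1 (CD39) at 471 CPM against 204 in endothelial cells. Of 11 ion channels and transporters, 8 were highest in the class, with a median of 1.13 and none past 8-fold. The sodium-calcium exchanger Slc8a1 was at 2711 CPM (2533 to 2899) against 754 in excitatory neurons. Slco2b1, an organic anion transporter, was at 674 CPM against 273, and the potassium channel Kcnk13 (THIK-1), which sets the microglial resting potential, at 244 CPM against 147 in the oligodendrocyte lineage. Clic1 was level with endothelial cells, at 136 against 138 CPM.

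Lysosomal genes were highest in the annotated microglia in 16 of 19 cases, with a median of 1.30. The asparaginyl endopeptidase Lgmn was at 1022 CPM (913 to 1139.5) against 126 in the oligodendrocyte lineage, and the cathepsins Ctsb and Ctss at 661 CPM and 313 CPM against 100.3 and 2.56. Psap, the saposin precursor, was level with astrocytes, at 373 against 366 CPM, and Lamp2 was higher in vascular leptomeningeal cells, at 203 against 152. Of 19 genes of leukocyte actin control and chemotaxis, 18 were highest in the class and 11 of them past 8-fold, with a median of 3.89. They included the lipid phosphatase Inpp5d (SHIP1, 1449 CPM (1319 to 1588) against 93.8), the adaptor Fyb (955 CPM against 42.2), the kinase Lyn (1199 CPM against 379.95) and Elmo1, a Dock partner (1996 CPM against 724). Dock10 was the exception, at 743 CPM against 2466 in the oligodendrocyte lineage.

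Of 18 cytokines and chemokines, 8 reached 20 CPM, of which 7 were highest in the annotated microglia and 2 past 8-fold, with a median of 1.35. They were led by Il16 (225 CPM against 14.7) and Tgfb1 (174 CPM against 105). Il1b and Cxcl10 had no UMI in the class, which allows up to 9.49 CPM, and Tnf had none in any nucleus. Antigen presentation and interferon genes were highest in 4 of 7 cases, with a median of 0.46. The class I genes B2m and H2-D1 were at 149 CPM and 123 CPM, close to the 107 and 127 of endothelial cells. The class II genes H2-Aa and Cd74 had no UMI in the class. In a list of 14 genes of monocytes and granulocytes, 9 had no UMI in the class, among them Ccr2, Ly6c2, S100a8 and S100a9. The 2 members measured were Csf3r and the lysozyme gene Lyz2 (111 against 1.04 CPM in astrocytes), which macrophages also express, and both were highest in the class and past 8-fold.

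Ligands of microglial receptors were read for the class that held most of each. The CSF1R ligand Il34 was highest in vascular leptomeningeal cells, at 305 CPM against 9.49 in the annotated microglia, and Csf1 was nearly level between the annotated microglia (101) and vascular leptomeningeal cells (90.5). Tgfb2 was highest in endothelial cells (197 CPM), and the neuronal signals Cx3cl1 and Cd200 in inhibitory neurons (34.8 and 97.2 CPM). Gas6 and Pros1, which bridge dying cells to Mertk, were highest in the annotated microglia themselves, at 323 and 231 CPM against 65.8 in inhibitory neurons and 145 in endothelial cells. Apoe, a lipid carrier and Trem2 ligand, stood at 1965 CPM, level with astrocytes at 1952.

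The next comparison set the groups within the class against each other. Over 7879 genes at 20 CPM or more, 1005 (12.8%) were at least 2-fold higher in F13a1/Mrc1-rich nuclei and 1174 (14.9%) at least 2-fold lower. Of 3060 genes at 100 CPM or more in either group, 431 (14.1%) were higher in the F13a1/Mrc1-rich nuclei in all 4 libraries and 489 (16%) lower in all 4. The 24 genes named next had the largest ratios of those outside both lists and were picked after their values had been seen.

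Rbpj, the DNA-binding factor of Notch signalling, was the most abundant of them. It was at 9092 CPM (8606 to 9599.7) in F13a1/Mrc1-rich nuclei and 166 CPM (109 to 241) in homeostatic-rich nuclei, a ratio of 54.9-fold (95% interval 37.5 to 83.6). Each of the 40 F13a1/Mrc1-rich nuclei held Rbpj, at 1 to 69 UMIs (median 34), against 17 of 48 homeostatic-rich nuclei (at most 6 UMIs). By stage the F13a1/Mrc1-rich level was 6621 CPM (E19), 10565 (P4), 11971 (P8) and 5871 (P21), and the homeostatic-rich level 209, 199.5, 86.8 and 172 CPM. The highest other class, vascular leptomeningeal cells, had 146, so this level was found in the F13a1/Mrc1-rich nuclei at every stage and in no other class.

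Dab2, an endocytic adaptor, was at 4295 CPM (3963 to 4648) against 85.9 in homeostatic-rich nuclei, and Colec12, a scavenger receptor with a collagen-like stem, at 1848 CPM (1632 to 2084) against 12.3. Aoah was at 899 CPM (751 to 1069) against 12.3, where 2 UMIs made up the lower value, giving a ratio of 73.3-fold (95% interval 19.9 to 611). The other genes of this side, Mndal, Gm30489, F630028O10Rik, Adam33, Pomk, Mill2, Ms4a4a and Cmah, had no UMI in homeostatic-rich nuclei and 216 to 446 CPM in the others. Mndal was at least 24.2-fold higher, against the limit of 3 counts in the group without UMIs, and Cmah at least 11.7-fold. Mndal belongs to a family of near-identical interferon-inducible genes and overlaps others on its strand, so its counts are uncertain.

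On the homeostatic side the most abundant gene was Nav2, a neuron navigator protein of the cytoskeleton, at 2492 CPM (2256 to 2747) against 62.8 CPM (28.7 to 119), and dividing cells, at 2063 CPM, lay above the class as a whole. Lair1, an inhibitory collagen receptor, was at 638 CPM (522 to 774) against 13.9, Rapgef5, a Rap1 activator, at 731 against 20.9, and Atp8a2, a phospholipid flippase, at 589 against 13.9. The tetraspanin Cd9 was at 258 against 0 CPM (at least 12.3-fold), the junction protein F11r at 282 against 0 CPM (at least 13.5-fold) and the inhibitory receptor Havcr2 (TIM-3) at 141 against 0 CPM (at least 6.75-fold). The remaining genes of this side were 8030442B05Rik, Csf1, Capn3, Rasal3 and Spata13, all with no UMI in F13a1/Mrc1-rich nuclei. All of the named genes kept their side in each library, as the rule for naming required.

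**Figure D4:**
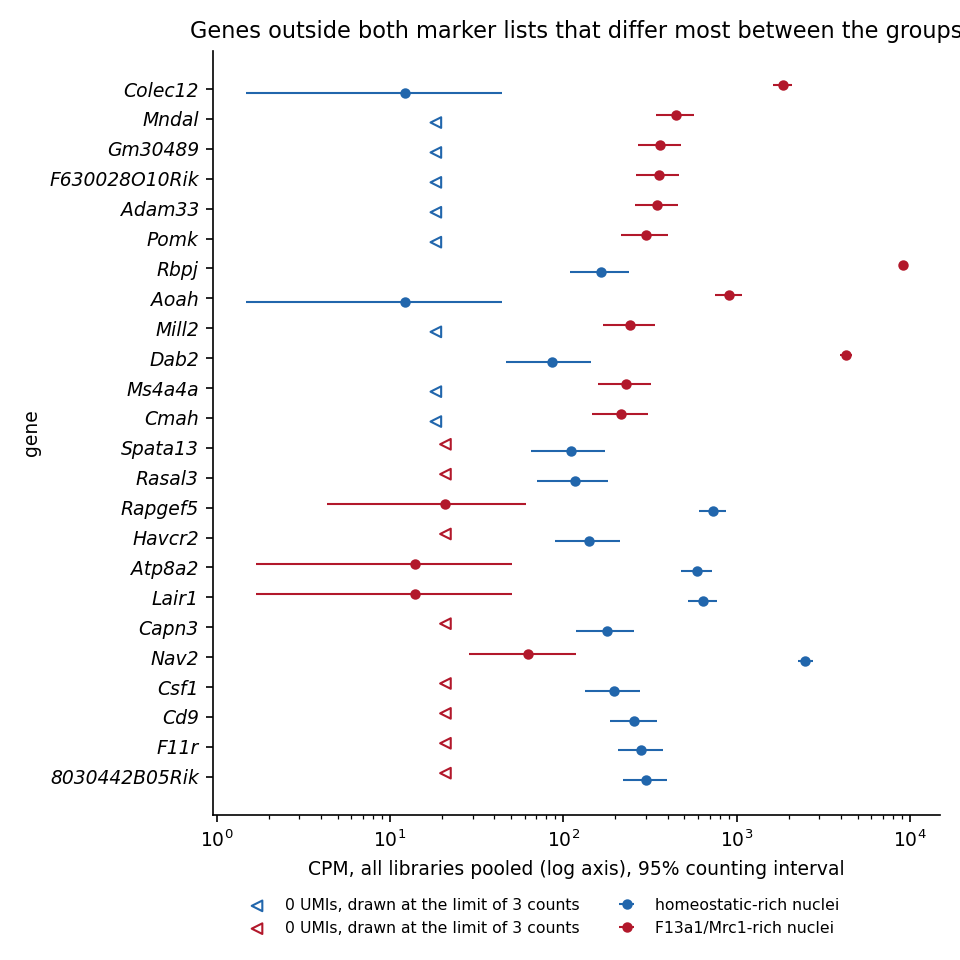
Levels of the 12 genes furthest on each side, in homeostatic-rich nuclei (blue) and F13a1/Mrc1-rich nuclei (red), in CPM on a logarithmic x axis with 95% counting intervals. Open triangles stand for 0 UMIs and are drawn at the limit of 3 counts. Rbpj reached 9092 CPM in F13a1/Mrc1-rich nuclei, and Nav2 2492 CPM in homeostatic-rich nuclei.

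Members of the functional lists differed in which group held them. Among the recognition receptors, Stab1 (2099 against 301 CPM, higher in F13a1/Mrc1-rich nuclei), Msr1 (230.1 against 24.6 CPM), Cd36 (112 against 0 CPM) and Timd4 (90.6 against 0 CPM) lay on the F13a1/Mrc1-rich side. Trem2 (221 against 20.9 CPM, higher in homeostatic-rich nuclei), Itgb5 (915 against 112 CPM), Lrp1 (792 against 76.7 CPM) and Mertk (1971 against 879 CPM) lay on the homeostatic side. In all, 5 of the 17 were at least 2-fold higher on the first side and 8 on the second. Over all genes at 20 CPM or more, 12.8% were higher on the first side by this measure and 14.9% on the second. Stab1 is counted among the 5 but belonged to the lists that formed the groups. So did, further on, Pf4, Sall1, Cx3cr1, P2ry12 and Csf1r.

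Of 15 receptors and partners for TGF-beta and growth factors, 7 were at least 2-fold higher in homeostatic-rich nuclei, beside 14.9% of all genes. Another 1 was at least 2-fold lower, beside 12.8%. Tgfbr1 was at 1774 CPM (1575 to 1991) against 167, a ratio of 10.6-fold (95% interval 6.98 to 16.8), and Csf3r at 626 against 55.8 CPM. Nrros was the member on the other side, at 823 against 270.1 CPM. Tgfbr2 was at 387 CPM in homeostatic-rich and 460.2 in F13a1/Mrc1-rich nuclei, and Csf1r differed by 1.55-fold (95% interval 1.22 to 1.98). Of the transcription factors, Maf was 3.51-fold (95% interval 2.71 to 4.59) higher in F13a1/Mrc1-rich nuclei, while Sall1 and Sall3, at 196 and 92.1 CPM in homeostatic-rich nuclei, had no UMI in the others.

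Of the 7 interferon and class I genes that reached 20 CPM in the class, 6 were at least 2-fold higher in F13a1/Mrc1-rich nuclei and none lower. The shares over all genes were 12.8% and 14.9%. A high level in F13a1/Mrc1-rich nuclei alone could meet the filter. B2m was at 209 against 67.5 CPM, Stat2 at 132 against 30.7 CPM, and Oasl2 at 160.4 CPM with no UMI in homeostatic-rich nuclei. Of 8 measured cytokines and chemokines 5 lay on the F13a1/Mrc1-rich side by the same measure, beside the same shares of all genes. They included Il16 (397 against 73.7 CPM), Ccl2 (55.8 against 6.14 CPM) and Pf4 (286 against 0 CPM), which helped to form the groups. Csf1 lay on the other side. Gas6 (523 against 166 CPM) was higher in F13a1/Mrc1-rich nuclei, and Pros1 (344 against 119 CPM) in homeostatic-rich ones, so that the ligands of Mertk were divided between the groups.

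Several genes held in common differed by little. C1qa was at 393 CPM in homeostatic-rich nuclei and 397 in the others, C1qb at 411 and 397, P2ry6 at 295 and 286, Dock2 at 988 and 1011, and Ctsb at 663 and 697. P2ry12, often taken as a marker of microglia against border macrophages, was at 522 CPM (417 to 645) and 404 CPM (307 to 523), a ratio of 1.29-fold (95% interval 0.913 to 1.83). It was found in 37 of 48 and 26 of 40 nuclei, against 6.01% of excitatory neurons. In these nuclei P2ry12 separated the groups less than Cx3cr1, whose ratio was 6.86-fold (95% interval 4.24 to 11.7).

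Stage was described next, with 1 library for each. Over 2490 genes with at least 100 CPM and 10 UMIs in the higher of E19 and P21, 517 (20.8%) were at least 2-fold higher at P21 and 308 (12.4%) at least 2-fold lower, with a median log2 ratio of 0.24. The P21 sum was the deeper, so the filter let in more genes that were high at P21. Without F13a1/Mrc1-rich nuclei 175 of 1721 genes were lower at P21. Without homeostatic-rich nuclei 252 of 851 were higher and 96 lower. Fewer genes passed the filter in both cases, so these counts are to be read against those totals.

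Among genes highest in the annotated microglia, the largest ratios in favour of P21 belonged to genes with few UMIs. Mlxipl, a glucose-sensing factor, had 0 UMIs at E19 and 0, 13.8, 13.2 and 171 CPM in the order of stages. Epc2, Opa1, Serpinb6a, Nol8, Gfpt1 and Hlcs also had no UMI at E19, and 12 to 18 UMIs at P21, so their levels were at least 2.04- to 3.05-fold higher. Il7r was found at P21 alone, with 13 UMIs, 6 of them in a nucleus in which lymphocyte genes led. These values lie close to what the E19 depth could resolve.

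The genes with the largest ratios in favour of E19 were Mif, Tubb2b, Stmn1, Tubb2a, Zfp715, Csf1, Pf4 and Gm30489. The tubulin Tubb2b was at 1327 CPM (E19), 840.5 (P4), 435 (P8) and 36.01 (P21), a log2 ratio of -5.02, and the microtubule destabiliser Stmn1 at 919.9, 744, 211 and 72.03 CPM. Both are abundant in young neurons, and the other classes together differed alike, by -6.16 and -3.46 (log2, P21 against E19). Tubb2a, a near-identical copy of Tubb2b whose reads may be shared with it, was at 584, 592, 342 and 63.02 CPM. Whether free RNA of neurons contributed was not tested. Neuron-marker UMIs were 25.1, 38.2, 44.0 and 66.2 per 10000 UMIs of the annotated microglia in the order of stages, against 326 to 331 in neurons over all stages and 30.8 in endothelial cells, the lowest class. Of the 735 neuron-marker UMIs at P21, 233 lay in 1 homeostatic-rich nucleus.

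Csf1, the ligand of the cells' own receptor, was at 419 CPM (E19), 559 (P4), 28.9 (P8) and 42.95 (P21) within homeostatic-rich nuclei, and had no UMI in F13a1/Mrc1-rich nuclei at any stage. Its E19 and P4 levels lay above those of P8 and P21. The ratio of E19 to P21 was 9.75-fold (95% interval 2.72 to 52.9), on 14 and 3 UMIs. At E19 6 of the 14 UMIs came from 1 nucleus, and at P4 12 of the 14 came from 1 nucleus. In the other classes together Csf1 was higher at P21, with a log2 ratio of 1.09. Pf4, the platelet factor 4 chemokine of border macrophages, was at 736 CPM (E19), 274 (P4), 193 (P8) and 109.7 (P21) within F13a1/Mrc1-rich nuclei, lower at each later stage, on 41 UMIs in all.

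UMIs of the oligodendrocyte list were 1.59, 2.48, 4.35 and 17.5 per 10000 UMIs of the annotated microglia in the order of stages, and 7.06 to 22.8 at P21 in all other classes save the dividing cells (97.2) and the oligodendrocyte lineage (274). Whether such RNA was made in these nuclei was not tested. Among genes higher in other classes, Itih5, Nebl and Ptgds were named by rank at P21, but 33 of 33, 16 of 29 and 28 of 62 UMIs came from 1 nucleus. Cenpe, Kifc1 and Kif11 (below) and the growth cone gene Gap43 (513, 565, 263 and 9.003 CPM) were lower at P21.

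Within homeostatic-rich nuclei, 308 genes had 30 or more UMIs in the higher of E19 and P21. Of these, 99 (32.1%) were at least 2-fold higher at P21 and 19 (6.17%) at least 2-fold lower, with 69846 UMIs at P21 against 33420 at E19. Selplg was at 119.7 CPM (E19), 119.7 (P4), 289 (P8) and 1102 (P21), a ratio of P21 to E19 of 9.21-fold (95% interval 3.46 to 34.7). The P21 level lay above all earlier ones with intervals that did not overlap. Siglech was at 509, 479, 463 and 1059 CPM and Tgfbr1 at 1227, 718, 1388 and 2606 CPM in the order of stages, with P21 the highest in both, and ratios of P21 to E19 of 2.08-fold (95% interval 1.22 to 3.76) and 2.12-fold (95% interval 1.51 to 3.06). Nav2 was at 179.5, 998, 1388 and 4682 CPM, 26.1-fold (95% interval 11.9 to 71.6) from E19 to P21, with P21 above and E19 below the stages between, whose intervals overlapped.

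Other homeostatic-rich genes with higher P21 levels were Numb, an inhibitor of Notch (209, 878, 665 and 1274 CPM), Maml3, a Notch co-activator (509, 1476, 1938 and 2004 CPM), Pag1, an adaptor of Src kinases (269, 678, 463 and 1289 CPM), and Ivns1abp (149.6, 439, 405 and 974 CPM). Vti1a, Agmo and 8030442B05Rik were also among those with the largest ratios of the genes highest in the class. Elmo1 was at 1107, 1237, 2922 and 3665 CPM. Not every homeostatic gene differed. Cx3cr1 was at 838, 599, 1359.5 and 830.4 CPM, with a ratio of E19 to P21 of 1.01-fold (95% interval 0.619 to 1.61), and P2ry12 was at 449, 439, 665 and 515 CPM. Fcrls was highest at E19, at 1077, 479, 549.6 and 458 CPM.

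UMIs of the neuron-marker list differed by stage in the same nuclei, from 25.1 per 10000 at E19 to 81.6 at P21. Of its 12 genes, 1 was highest in the annotated microglia and the others in another class. The long noncoding RNA Meg3 was 5.51-fold (95% interval 3.596 to 8.85) higher at P21, the synaptic membrane gene Csmd1 7.297-fold (95% interval 2.71 to 27.6), the neuregulin Nrg3 3.02-fold (95% interval 1.67 to 5.91) and the splicing factor Rbfox1 2.602-fold (95% interval 1.52 to 4.75). Without the nucleus that held 233 such UMIs, the P21 level was 56.6 per 10000, and the ratio was 2.85-fold for Meg3 and 6.31-fold for Csmd1. Without that nucleus Selplg was 10.4-fold, Siglech 2.31-fold, Tgfbr1 2.44-fold and Nav2 29.3-fold higher at P21 than at E19. The part of neuronal RNA in the other stage ratios was not tested.

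Genes higher at E19 in homeostatic-rich nuclei included a cholesterol exporter, its acceptor and lysosomal enzymes. Abca1, the exporter, was at 2992 CPM (E19), 1237 (P4), 1099 (P8) and 129 (P21), a ratio of E19 to P21 of 23.2-fold (95% interval 11.8 to 52.3). Apoe, which accepts that cholesterol, was at 2573, 2075, 926 and 573 CPM, and Ctsb, cathepsin B, at 1137, 1277, 607 and 243 CPM, with ratios of 4.49-fold (95% interval 3.05 to 6.71) and 4.67-fold (95% interval 2.57 to 8.83). The lysosomal regulator Mitf was at 1526, 559, 579 and 286 CPM and Lgmn at 2095, 1476, 1649 and 988 CPM. Man1c1, Snx24, Asap1 and Tubb2b were also among those with the largest ratios. In F13a1/Mrc1-rich nuclei Abca1 was at 865, 1073, 1321 and 905 CPM, with overlapping intervals at E19 and P21, and Mitf at 389, 631, 853 and 686 CPM. Whether the stage ratio of Abca1 differed between the groups was not tested.

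Within F13a1/Mrc1-rich nuclei, 109 genes had 30 or more UMIs in the higher of E19 and P21. Of these, 31 (28.4%) were at least 2-fold higher at P21 and 7 (6.42%) at least 2-fold lower. F13a1 itself was at 9736 CPM (E19), 4672 (P4), 6027 (P8) and 4279.6 (P21), and Mrc1 at 6621, 5556, 4486 and 2661 CPM. E19 was the highest and P21 the lowest in both. The ratios of E19 to P21 were 2.28-fold (95% interval 1.85 to 2.81) and 2.49-fold (95% interval 1.92 to 3.24). Stab1 was at 2683, 2273, 2642 and 960.2 CPM, with P21 below the 3 earlier stages, and Cd86 at 1298, 379, 550.4 and 466 CPM, with E19 above the later ones. These genes helped to form the group, apart from Cd86, but the stages were not part of the rule. P2rx7 was at 606, 442, 440.3 and 1783 CPM, with P21 2.94-fold (95% interval 1.63 to 5.68) above E19, while homeostatic-rich nuclei held 389, 239, 260.3 and 272 CPM. Among genes highest in the class, Ldlrad4, Jmjd1c, Camk1d, Arhgap15, Tmcc3, Fli1 and Mertk were also higher at P21, and Rnf150, Elmo1 and Vav3 lower, as was Apoe by less than 2-fold. Elmo1 was lower at P21 here (1991, 1199.6, 1569 and 823 CPM) and higher at P21 in the homeostatic-rich nuclei. Of the neuron markers, Rbfox1 was 11.1-fold (95% interval 2.85 to 95.2) and Meg3 2.16-fold (95% interval 1.19 to 4.13) higher at P21. Gad1, Gad2 and Nefl were higher at E19, with wide intervals. All neuron markers made up 42.5 UMIs per 10000 at P21, against 25.1 at E19. The E19 values rest on 5 nuclei and 23109 UMIs, and those of P21 on 36452.

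**Figure D5:**
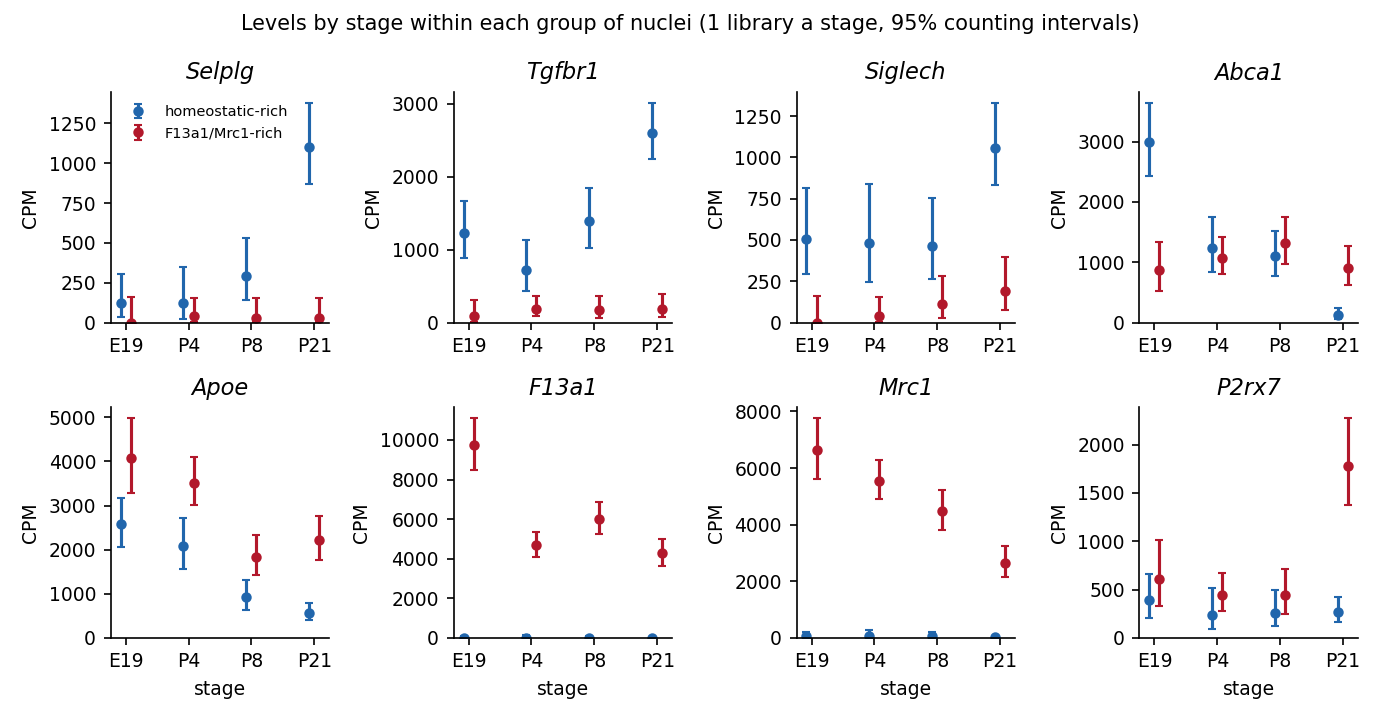
Levels of 8 genes by stage (x axis) in homeostatic-rich (blue) and F13a1/Mrc1-rich (red) nuclei, in CPM on linear axes that start at 0, with 95% counting intervals and 1 library a stage. In homeostatic-rich nuclei Selplg reached 1102 CPM at P21 and Abca1 2992 at E19. In F13a1/Mrc1-rich nuclei Mrc1 ran from 6621 at E19 to 2661 at P21.

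Genes of the cell cycle were held by few nuclei. A list of 22 such genes had 10 or more UMIs in 11 of the 90 nuclei (13 to 80 UMIs), and at most 5 in the other 79 (median 0). At E19, 2 homeostatic-rich nuclei held 37 and 26 such UMIs and 2 F13a1/Mrc1-rich nuclei 17 and 80. At P4 1 F13a1/Mrc1-rich nucleus held 24, and at P8 5 homeostatic-rich nuclei held 13, 42, 26, 28 and 21. At P21 the only such nucleus was 1 in which lymphocyte genes led, with 27. The proliferation marker Mki67 was at 336 CPM (E19), 13.8 (P4), 105 (P8) and 18.01 (P21), and the topoisomerase Top2a at 195, 41.3, 237 and 81.03 CPM. The P21 nucleus in which lymphocyte genes led held 2 UMIs of Mki67 and 8 of Top2a. The P21 levels of both rest largely on that nucleus. At E19, 1 homeostatic-rich nucleus held 11 UMIs of Mki67. Of the 22 members, 8 passed the filter, which a high level at E19 alone could meet, and each of these was at least 2-fold lower at P21 than at E19, beside 12.4% of all genes. The mitotic motors Cenpe, Kifc1 and Kif11, which had no UMI at P21, were at least 7.86-fold, at least 7.205-fold and at least 7.205-fold lower there.

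Of 18 genes listed for an early postnatal phagocytic state, 4 passed the filter. A high level at E19 alone could meet it, here and in the lists that follow. Each of the 4 was at least 2-fold lower at P21 than at E19. They were Apoe, at 3184 CPM (E19), 3017 (P4), 1317 (P8) and 1098 (P21), Ctsb, at 1097, 909, 553 and 351 CPM, and Fabp5 and Ctsl, at 265, 220.5, 184 and 27.01 CPM and 195, 262, 79.02 and 72.03 CPM. Fabp5, a fatty acid carrier, differed alike in the other classes (log2 ratio -3.24). Spp1, osteopontin, was at 53.1 CPM at E19 and 248 at P4 and had no UMI later, but 17 of its 21 UMIs came from 1 P4 nucleus. Over all genes 12.4% were lower by this measure and 20.8% higher. In the lysosome list 5 of 16 members were at least 2-fold lower at P21 and 2 higher. In the homeostatic list 2 of 11 were higher (Selplg and Siglech), a share near that of all genes, and none lower, and in the border list 6 of 7 were lower and none higher. The share of F13a1/Mrc1-rich nuclei in the class was also lower at P21 than at E19, with overlapping intervals, and its part in the last count was not tested apart from the levels within those nuclei given above.

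The promoters of the strongly enriched genes were read because Spi1 encodes PU.1, an Ets factor whose known binding motif contains the letters GAGGAAGT. A window of 300 bases (250 before the start and 50 after it) was available in RefSeq for 86 of the 115 genes at least 8-fold above the highest other class. The motif was found on either strand in 16 of the 86 windows (18.6%), against 997 of 27025 windows of all genes in the table (3.69%) and 238 of 6193 windows of genes at 20 CPM or more in the class (3.84%). The 16 genes were Apbb1ip, Arhgap25, C1qc, Cd37, Cd53, Ctsc, Ctss, Cyth4, F13a1, Fgd2, Hpgds, Inpp5d, Pf4, Pik3cg, Pld4 and Vav1. In the bases before the start alone it was found in 9 of 86 (10.5%), against 2.79% and 3.04%. The 3 sequences below are the 250 bases before the start of genes that hold it within 20 bases of their only listed start (Arhgap25 holds it 11 bases before 1 of its starts), from RefSeq on GRCm38.p6 (mm10), 5′ to 3′ along the gene, with GAGGAAGT or its reverse complement ACTTCCTC in capitals.
Vav1, chr17:57278850-57279099, plus strand: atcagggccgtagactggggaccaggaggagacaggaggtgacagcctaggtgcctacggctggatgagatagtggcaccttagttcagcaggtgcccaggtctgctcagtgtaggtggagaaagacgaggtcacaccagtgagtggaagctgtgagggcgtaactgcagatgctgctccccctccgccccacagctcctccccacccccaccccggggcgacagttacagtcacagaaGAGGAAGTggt
Pf4, chr5:90772185-90772434, plus strand: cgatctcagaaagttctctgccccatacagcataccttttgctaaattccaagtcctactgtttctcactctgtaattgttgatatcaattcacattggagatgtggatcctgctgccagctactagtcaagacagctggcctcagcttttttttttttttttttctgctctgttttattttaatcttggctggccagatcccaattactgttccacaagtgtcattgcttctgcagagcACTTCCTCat
Inpp5d, chr1:87620062-87620311, plus strand: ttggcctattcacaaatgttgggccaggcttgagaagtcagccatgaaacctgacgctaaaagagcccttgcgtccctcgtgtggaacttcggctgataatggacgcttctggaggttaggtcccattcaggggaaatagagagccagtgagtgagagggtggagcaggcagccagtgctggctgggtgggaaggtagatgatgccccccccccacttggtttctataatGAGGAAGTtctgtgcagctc
The match lay 11 bases before the start in Vav1, 10 in Pf4 and 20 in Inpp5d. Vav1, a Rac activator of blood cells, was at 228 CPM (178 to 287) in the annotated microglia against 0.474 in the next class. Vav1 and Inpp5d were higher in homeostatic-rich nuclei, at 338 against 112 CPM and 2198 against 662 CPM. Pf4, a member of the border list, was found in F13a1/Mrc1-rich nuclei alone (286 CPM). These 3 genes were picked because they hold the motif, so they do not show how it was shared between the groups. Spi1 itself was at 246 and 335 CPM. A match of letters is no evidence of binding, and none was measured.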

How the data were processed

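Nuclei were purified from dounced superior colliculus through a sucrose cushion and captured with the 10x 3′ v3 chemistry, per the labels' protocols, with 1 library at each stage. Per the submitters' processing notes, Cell Ranger 3.0.2 and mm10 were used. The deposited matrix holds raw UMI counts of 31053 genes in 9724 nuclei, and the authors' deposited table gives each nucleus its stage, class, cluster, UMI count and percent of mitochondrial and ribosomal UMIs. UMI totals matched that table in all 9724 nuclei. Another 6 deposited columns were not used. Filters on nuclei and the handling of doublets are not given in the sources used here, and no doublet caller was run. A protocol text writes the embryonic day as E10, whereas titles and stage labels say E19, which was followed.

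UMIs were summed per class, stage and group and scaled to CPM. Log2 ratios had 5 CPM added to both values. Exact Poisson, Clopper-Pearson and conditional ratio intervals were computed with Python 3.11.15, numpy 2.4.6, scipy 1.17.1 and pandas 2.3.3 and cover counting error only. A level of 0 was given the limit of 3 counts. With 1 library a stage no p-value was computed.

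Nuclei were divided by the larger of their homeostatic and border list sums, or by the lymphocyte list where it led. The rule for names took the 25 largest ratios to the highest other class at 100 CPM or more, above every other class in each library, then 8 genes each way between E19 and P21 among those highest in the class and 4 each way among the rest. It also took up to 5 members of each list by level and those higher elsewhere at 100 CPM or more, and it left out mitochondrial, ribosomal, haemoglobin and sex-linked genes. A few genes that these rules take are not reported here. Genes between the groups (12 each way) and within them by stage (8 each way) were ranked after values were seen, and other list members were named for their known roles after values were seen. The class, the markers and the lists were chosen with earlier results of these data known. Gene positions came from the mm10 annotation, which held 31011 of the 31053 identifiers, and promoters from the RefSeq table on GRCm38.p6. Alternatives were other added constants, scalings, weights and filters, each library left out, and groups of nuclei left out.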

Additional observations from a re-analysis of the deposited data

How the results depend on the processing

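The depth of 56529 UMIs at E19 limits what can be said of absence there, since 0 UMIs allow up to 53.1 CPM, and no stage has a replicate. No paired analysis was possible because the stages compared have 1 library each and the shared replicate number 1 pairs nothing. Contrasts within the 4 libraries were described by library and not tested. With 20 CPM added in place of 5, 69 genes in place of 115 were at least 8-fold above the highest other class. Without each library in turn that count was 110 to 118. Without F13a1/Mrc1-rich nuclei it was 108, of which 84 were among the 115, and F13a1 changed sign to -0.42. Without homeostatic-rich nuclei the stage counts were 252 higher and 96 lower at P21, of 851 genes that passed the filter. Without F13a1/Mrc1-rich nuclei 175 of 1721 were lower. The main counts were 517 higher and 308 lower of 2490, so the counts are not comparable without these totals. Leaving out groups of nuclei or nuclei with most neuron markers, or using the 2-fold cut between the lists, was in part chosen after the data were seen. Taking nuclei by marker UMIs in place of the deposited class gave 40 nuclei, all within the class, and shares of 0.293% at P4, 0.319% at P8 and 0.756% at P21, where the interval no longer lay apart from that of E19. At E19 the value of 0.309% stayed within the interval. The smaller set taken by marker UMIs does not measure the share of the whole class. Reading only bases before the start gave 10.5% of promoters with the motif. Median log2 ratios of lists to the highest other class without F13a1/Mrc1-rich nuclei became 5.55 (homeostatic), 2.47 (phagocytosis), 2.31 (growth factor and TGF-beta receptors), -0.11 (antigen presentation), 1.39 (border), 2.89 (lymphocyte) and -4.67 (oligodendrocyte), and the stage median of the early phagocytic list became -2.26. With the mean of per-nucleus CPM the growth factor list was at 2.17 and the red blood cell list at -0.71. The cause of these shifts was not tested. The stage median of all genes lay between 0.21 and 0.51 over the alternatives. Of the other values for comparisons, 100 stayed within their limits, and of those for single genes 518 did and 22 moved without a change of sign.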

Other observations

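In 2 of the 90 nuclei lymphocyte genes led. A P8 nucleus of 5020 UMIs held 23 of the 25 UMIs of Skap1, an adaptor of T cell receptor signalling, that the class held, with 4 UMIs of Cd247 and 1 of Cd3e, parts of the T cell receptor complex. A P21 nucleus of 4774 UMIs held 14 of the 15 UMIs of Pax5, the factor of B cell identity, 6 of the 13 of Il7r, 2 of Cd79b and 1 of Cd79a, parts of the B cell receptor, along with 27 UMIs of cell cycle genes. Neither held a UMI of Csf1r.

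A homeostatic-rich nucleus of P4 stood apart from the other 89 by a set of 5 genes known from microglia that engulf axons and cells in young white matter. It held 17 UMIs of Spp1, 6 of Igf1, 6 of Lpl, 4 of Itgax and 2 of Csf1, a sum of 35 in 3691 UMIs. The next highest sums were 15 in another P4 nucleus, of which 12 were Csf1, and 8 in an E19 nucleus, of which 6 were Csf1. The nucleus with the sum of 35 also held 25 homeostatic UMIs and 10 of Apoe. The set was chosen after these values had been seen, and 1 nucleus allows no share to be compared between stages. Csf1 is not a member of the list of 18 genes for an early postnatal phagocytic state. Other members of that list, apart from Apoe, are not given for this nucleus, so the set does not show that the state was matched.

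A single P21 nucleus of 10267 UMIs held 233 UMIs of neuron markers beside 35 homeostatic UMIs, where the next highest nucleus of the class held 35 neuron-marker UMIs. It was also the deepest nucleus of the class. Without it 117 genes were at least 8-fold above the highest other class.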
